A study of Mus musculus with 4 samples.

Results

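The cyclins, cyclin-dependent kinases and mitotic genes described here are 42 genes chosen by name, out of 55573 gene rows in the count table. All 42 were found in the annotation and all 42 were among the 12401 genes tested. They were divided into 9 genes of the G1 phase and entry into S phase and 33 genes of the G2 phase, mitosis and mitotic exit. There were 4 RNA immunoprecipitations, 2 made with a Runx1 antibody and 2 with IgG, the control antibody that measures background. All 4 came from wild-type C57BL/6 mouse embryos at embryonic day 10.0, from Cd31+ cells sorted from the caudal, tail-side portion of the body. RIP-seq sequences the RNA that an antibody pulls down. The question was which RNAs the Runx1 antibody recovered above the IgG background. The labels do not state that replicates of an antibody came from separate embryos or sorts, so p-values reflect only how far these libraries differ, and that spread may be technical. In bulk libraries, fewer cells of a type and less RNA per cell cannot be told apart.

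Cyclins are proteins that switch on cyclin-dependent kinases, and many of them, though not the D-type cyclins, are made and destroyed once per cell division. D-type cyclins with CDK4 or CDK6 and E-type cyclins with CDK2 carry a cell out of G1 and into DNA replication, while cyclin A and B with CDK1 drive entry into mitosis. Polo and Aurora kinases, motor proteins and kinetochore proteins then build the spindle, the checkpoint holds the cell until chromosomes are attached, and the anaphase-promoting complex ends mitosis by marking cyclin B for destruction. Transcripts of the G2 and mitosis genes rise and fall with the cycle, so they are abundant in dividing cell populations such as those of the early embryo.

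Sequencing depth, as the total over gene rows, was 1675488 and 1887301 counts in the Runx1 libraries and 3843318 and 2482045 counts in the IgG libraries. Summed CPM of the 9 endothelial markers was 1389 and 1131 in the Runx1 libraries, against 1448 and 1372 in the IgG libraries, and Pecam1, which encodes the sorted protein, was present in all 4 libraries. Summed markers of other cell types were also present. The 6 erythroid markers summed to 787 and 794 CPM with the Runx1 antibody and 446 and 412 CPM with IgG. The 5 neural markers summed to 633 and 518 CPM with the Runx1 antibody and 388 and 379.9 CPM with IgG, and the 6 mesenchymal markers to 587 and 624 CPM against 761 and 755 CPM. The 6 blood markers summed to 110.4 and 189.7 CPM with the Runx1 antibody and 195 and 189 CPM with IgG, the 5 macrophage markers to 88.9 and 203 CPM against 90.5 and 79.0 CPM, and the 4 epithelial markers to 152 and 149 CPM against 148 and 104 CPM. The erythroid, neural and epithelial sums were higher, and the mesenchymal sum lower, in both Runx1 libraries than in both IgG libraries. The nearest epithelial sums were 149 and 148 CPM, and those markers went both ways (log2 fold change 2.36 for Krt8, 0.51 for Epcam, -0.30 for Cdh1, -0.58 for Krt18). Mesenchymal markers did too, with Tbx15, Prrx1 and Pdgfra below 0 and Twist1, Col1a1 and Meox1 above 0. Over all 7 lists 1 marker passed the test, the mesenchymal gene Tbx15, which was lower. The part of these cells in the results below was not tested.

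Of the 42 genes 1 passed the test across all genes, the phosphatase gene Cdc14a, which was lower with the Runx1 antibody. No member was higher at an adjusted p under 0.05 in edgeR's quasi-likelihood test, where 0.306% of all tested genes were called higher and 0.339% lower. The other 41 did not pass. Before adjustment, edgeR gave a p under 0.05 to 10 members that were higher and 1 that was lower, or 23.8% and 2.38% of the list, beside 6.88% and 7.36% of all tested genes. DESeq2 called 5 members higher (Cdk4, Ccnb2, Cenpa, Cenpe and Top2a) and 1 lower (Cdc14a), where it called 1.98% of all tested genes higher and 2.77% lower, and gave no adjusted p for 5 members. limma-voom called 2 higher (Cdk4 and Top2a) and 1 lower (Cdc14a), beside 0.823% and 0.968% of all tested genes.

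The members as a set were spread around a small positive change. Their log2 fold changes, Runx1 antibody over IgG, ran from -1.86 to 1.85 with a median of 0.21, beside a median of 0.027 over all genes tested. The fold change was above 1 in 31 of the 42, or 73.8%, beside 51.5% of all tested genes. Both Runx1 libraries lay above both IgG libraries for 18 members (42.9% of the list, beside 24.1% of all tested genes) and below both for 4 members (9.52%, beside 21.3%). In 20 members the groups overlapped. Summed over the 42 genes, 8996 and 8991 CPM were counted with the Runx1 antibody and 7033 and 7387 CPM with IgG, so that the sums did not overlap. This sum is led by a few genes, since the 4 highest members hold 53.7% of it.

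**Figure D1:**
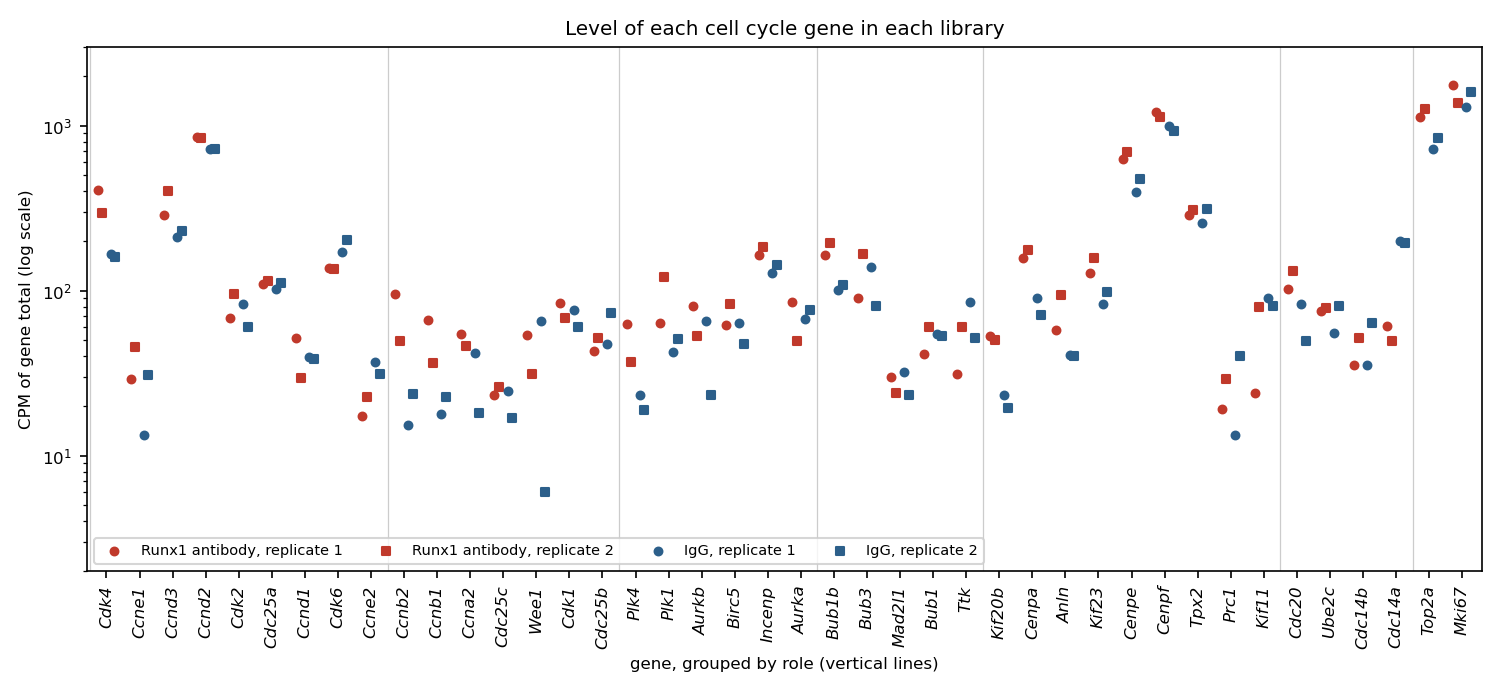
Level of each of the 42 genes in each of the 4 libraries, in CPM (counts per 1000000 gene counts) on a log scale; red points are libraries made with the Runx1 antibody, blue points libraries made with IgG, and vertical lines separate the 7 role groups. Cdc14a stands at 61.5 and 49.8 CPM with the Runx1 antibody against 201 and 196 CPM with IgG, and Wee1 in IgG replicate 2 is the lowest point of all.

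Errors were smaller for abundant genes. Mean levels over the 4 libraries ran from 22.7 to 1506 CPM, and counts of a member in a library from 15 to 4995. The 16 members with a mean of at least 100 CPM had a median standard error of 0.23 on the log2 scale, and the 26 members below it 0.49. Compared per length, as CPM per kilobase of the principal transcript, the highest levels in the Runx1 libraries were those of Top2a (230.2 with the Runx1 antibody and 150.4 with IgG), Cdk4 (171 and 79.6), Ccnd3 (163 and 104) and Mki67 (156 and 144). The order differed in the IgG libraries, where Ccnd2 (134 with the Runx1 antibody and 114 with IgG) stood above Ccnd3 and Cdk4. The lowest was Mad2l1, at 3.55 with the Runx1 antibody and 3.68 with IgG.

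Cdc14a encodes a dual-specificity phosphatase that can remove phosphate groups placed by cyclin-dependent kinases. In budding yeast the single Cdc14 protein is needed to leave mitosis, while the mouse has the related genes Cdc14a and Cdc14b. Cdc14a lies on the minus strand of chromosome 3 (116272553 to 116424032, GRCm38, as in GENCODE M21). It had 61.5 and 49.8 CPM with the Runx1 antibody, against 201 and 196 CPM with IgG. The level was thus low in both Runx1 libraries, and the groups were far apart, with 55.6 ± 8.25 CPM against 198 ± 3.76 CPM (SD, n = 2 each). This is -1.86 ± 0.28 on the log2 scale (SE, adjusted p = 0.0346 by edgeR), a level 3.64-fold lower with the Runx1 antibody. With each library left out in turn, which leaves 1 library of that antibody, the log2 fold change was -2.05 to -1.74. With transcript length and GC content corrected for, the log2 fold change was -1.64 ± 0.27 and the adjusted p 0.0557 (1.28e-06 to 0.114 over all alternatives). An exon of Cdc14a overlaps Gm29151 on the opposite strand, which had 0 counts in both Runx1 libraries and 1 and 0 counts in the IgG libraries.

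Cdc14b, on chromosome 13, overlapped between the antibodies, with 35.2 and 51.4 CPM with the Runx1 antibody and 35.4 and 63.3 CPM with IgG. Its log2 fold change was -0.21 ± 0.48 (edgeR adjusted p = 0.907), and the difference between the 2 phosphatase genes was not tested. The longest alignment between their coding sequences covers 900 bases at 67.9% identity. Within that alignment, the most alike stretch of 90 bases without gaps still holds 19 differences. It is shown here because 1 of these related genes passed and the other did not. Shorter alignments and the untranslated regions were not searched for a closer stretch. Both are read from the GENCODE M21 principal transcripts, 5′ to 3′, with differing bases in capitals, at bases 122 to 211 of the Cdc14a coding sequence and 233 to 322 of the Cdc14b coding sequence, counted from the start codon:
Cdc14a: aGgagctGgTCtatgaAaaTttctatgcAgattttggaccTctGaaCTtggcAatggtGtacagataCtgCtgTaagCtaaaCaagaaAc
Cdc14b: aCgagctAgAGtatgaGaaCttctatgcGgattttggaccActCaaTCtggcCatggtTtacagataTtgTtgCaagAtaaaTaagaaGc

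Of the 9 genes of G1 and S phase entry none passed in edgeR. Before adjustment edgeR gave 2 a p under 0.05 (Cdk4 and Ccnd3, both higher), or 22.2%, beside 6.88% of all tested genes. The median log2 fold change of the 9 was 0.17, beside 0.027 over all genes tested. Of the 9, 7 were above 0 (77.8%, beside 51.5% of all tested genes). With transcript length and GC corrected for, this median was 0.032, and 0.081 by the longest transcript. Cdk4, the kinase partner of D-type cyclins, had 406 and 295 CPM with the Runx1 antibody, against 166 and 161 CPM with IgG. Both Runx1 libraries lay above both IgG libraries, and the difference was 1.07 ± 0.22 on the log2 scale (edgeR adjusted p = 0.0739). Its adjusted p was 7.06e-04 in DESeq2 and 0.0348 in limma-voom (7.06e-04 to 0.679 over all alternatives). With length and GC corrected for, Cdk4 stood at 0.75 (edgeR adjusted p = 0.256), and at 0.71 by the longest transcript (edgeR adjusted p = 0.304). Cdk6, which pairs with the same cyclins, was lower in both Runx1 libraries, with 138 and 136 CPM with the Runx1 antibody and 172 and 202 CPM with IgG. The groups did not overlap, and the difference of -0.48 ± 0.24 on the log2 scale missed the threshold (edgeR adjusted p = 0.411). With length and GC corrected for, Cdk6 stood at -0.047.

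The D-type cyclins are the cyclins that respond to growth signals. Ccnd2 was by far the most abundant of the 3, with 859 and 841 CPM with the Runx1 antibody and 727 and 721 CPM with IgG. The libraries of each antibody were close together, and the log2 fold change was 0.20 ± 0.12 (edgeR adjusted p = 0.517). Ccnd3 had 288 and 402 CPM with the Runx1 antibody and 211 and 231 CPM with IgG. The difference of 0.62 ± 0.22 on the log2 scale missed the threshold (edgeR adjusted p = 0.254). It was 0.81 without Runx1 replicate 1 and 0.33 without Runx1 replicate 2. With length and GC corrected for, it was 0.21 (edgeR adjusted p = 0.763). Ccnd1 had 51.9 and 29.7 CPM with the Runx1 antibody and 39.5 and 38.7 CPM with IgG, and the groups overlapped (log2 fold change 0.028 ± 0.49). The E-type cyclins were low, with Ccne1 at 0.75 ± 0.62 and Ccne2 at -0.80 ± 0.56 on the log2 scale, neither past the test. Cdk2, the partner of cyclin E, stood at 0.17 ± 0.37 and Cdc25a, the phosphatase that activates it, at 0.044 ± 0.28, and both overlapped between the antibodies.

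The 33 genes of G2, mitosis and exit had a median log2 fold change of 0.25, with 1 lower by the test (Cdc14a) and 32 that did not pass. Of the 33, 24 were above 0 (72.7%, beside 51.5% of all tested genes). Both Runx1 libraries lay above both IgG libraries in 15 of them (45.5%, beside 24.1% of all tested genes) and below in 2 (6.06%, beside 21.3%). The G2/M sums were 7027 and 7009 CPM with the Runx1 antibody and 5484 and 5799 CPM with IgG, and the G1/S sums 1969 and 1981 CPM with the Runx1 antibody and 1549 and 1588 CPM with IgG. In both phases the sums were higher in both Runx1 libraries, and whether the phases differ was not tested.

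**Figure D2:**
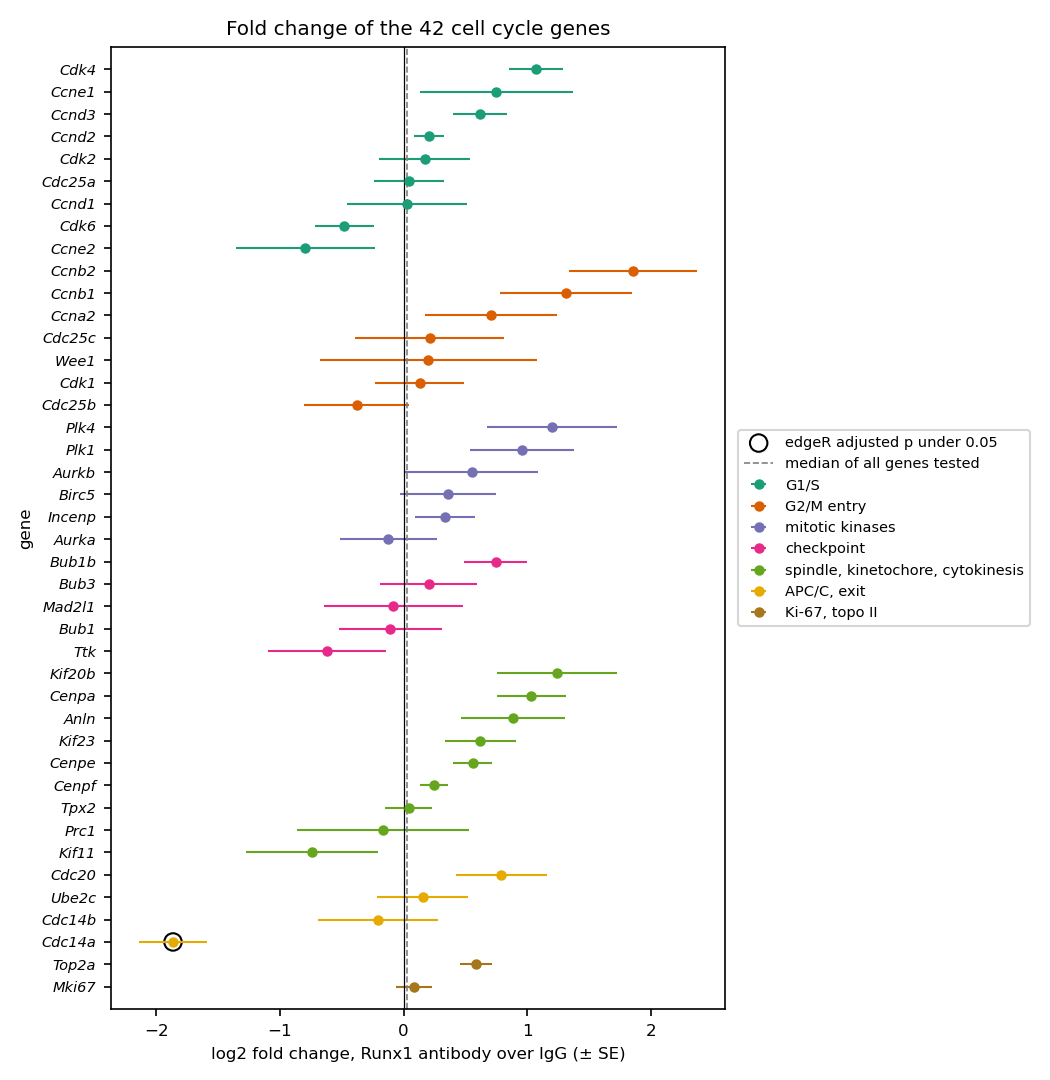
Log2 fold change of each gene, Runx1 antibody over IgG, with its standard error from the edgeR fit (n = 2 libraries each), coloured by role; the circle marks the gene with an adjusted p under 0.05 and the dashed line the median of all genes tested. Cdc14a, at -1.86, stands apart from the others, which run from -0.80 to 1.85.

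The mitotic cyclins had the largest positive changes among the members, with wide errors. Ccnb2, an activator of CDK1, had 94.9 and 49.3 CPM with the Runx1 antibody and 15.4 and 23.8 CPM with IgG. The groups stood apart, by 1.85 ± 0.52 on the log2 scale (edgeR adjusted p = 0.169). Ccnb2 passed in DESeq2 (adjusted p = 0.0196) and in edgeR with no low-count filter (0.0346), with 0.0196 to 0.438 over all alternatives. With a library left out its log2 fold change was 1.28 to 2.23. Ccnb1, the main mitotic cyclin, had 66.2 and 36.6 CPM with the Runx1 antibody and 17.95 and 22.6 CPM with IgG (log2 fold change 1.31 ± 0.53, edgeR adjusted p = 0.318). Replicate 1 was the higher of the 2 Runx1 libraries for both cyclins, and neither gene overlapped between the antibodies. Transcripts of 4 other genes, Ccnb1-ps, Gm12856, Gm8416 and Gm7483, hold near-identical copies of Ccnb1, with 1 count among them. Ccna2, cyclin A, which acts in S phase and G2, had 54.9 and 46.1 CPM with the Runx1 antibody and 42.2 and 18.1 CPM with IgG (log2 fold change 0.71 ± 0.53, edgeR adjusted p = 0.631). It stood at 1.43 without IgG replicate 1 and 0.22 without IgG replicate 2, and was not called in either.

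Cdk1, their kinase, had 84.8 and 68.4 CPM with the Runx1 antibody and 76.8 and 60.0 CPM with IgG, and the groups overlapped (log2 fold change 0.13 ± 0.36, edgeR adjusted p = 0.923). Of the phosphatases that activate CDK1, Cdc25b had 43.0 and 51.4 CPM with the Runx1 antibody and 47.4 and 73.3 CPM with IgG (-0.38 ± 0.43), overlapping, and Cdc25c stood at 0.21 ± 0.60. Wee1, the kinase that holds CDK1 back, differed most between its own replicates, with 53.7 and 31.3 CPM with the Runx1 antibody and 65.6 and 6.04 CPM with IgG. Its log2 fold change was 0.20 ± 0.88, and it stood at 2.75 without IgG replicate 1 and -0.67 without IgG replicate 2, so no direction can be read from it.

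Among the kinases of mitosis and the centriole and their partners, 5 of 6 had a fold change above 1 (83.3%, beside 51.5%), and none passed. Plk4, the kinase that starts centriole duplication, had 62.7 and 37.1 CPM with the Runx1 antibody and 23.4 and 18.9 CPM with IgG (log2 fold change 1.20 ± 0.52, edgeR adjusted p = 0.348). Plk1, which acts at many steps of mitosis, had 63.9 and 120.3 CPM with the Runx1 antibody and 42.7 and 50.8 CPM with IgG (0.96 ± 0.42, edgeR adjusted p = 0.352). In both genes all Runx1 libraries were higher than all IgG libraries, though a different replicate was the higher one. Corrected for length and GC, Plk4 stood at 1.38 and Plk1 at 0.56 on the log2 scale. Of the chromosomal passenger complex, which corrects wrong spindle attachments, Incenp had 165 and 184 CPM with the Runx1 antibody and 128 and 144 CPM with IgG (0.33 ± 0.24, edgeR adjusted p = 0.614). Its kinase Aurkb had 81.2 and 53.0 CPM with the Runx1 antibody and 65.6 and 23.4 CPM with IgG (0.55 ± 0.54, with 1.47 without IgG replicate 1 and -0.012 without IgG replicate 2). Aurkb and the survivin gene Birc5 (0.36 ± 0.39) overlapped between the antibodies, as did Aurka, the kinase of the spindle poles (-0.12 ± 0.39).

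The 5 genes of the spindle checkpoint had no common direction, with 2 above 0 and a median log2 fold change of -0.084. Bub1b, which encodes the checkpoint protein BubR1, had 164 and 194 CPM with the Runx1 antibody and 101 and 108 CPM with IgG. It was the checkpoint gene whose groups did not overlap (log2 fold change 0.75 ± 0.26, edgeR adjusted p = 0.242). Ttk, the kinase that starts checkpoint signalling, had 31.0 and 59.9 CPM with the Runx1 antibody and 85.1 and 52.0 CPM with IgG (-0.62 ± 0.48, edgeR adjusted p = 0.639). Bub3, a partner of the checkpoint kinases at kinetochores, had 90.7 and 168 CPM with the Runx1 antibody and 140.0 and 80.6 CPM with IgG, and the kinase gene Bub1 had 41.2 and 60.4 CPM with the Runx1 antibody and 54.4 and 53.2 CPM with IgG. Bub3 (0.20 ± 0.39), Bub1 (-0.11 ± 0.42) and Mad2l1 (-0.084 ± 0.56) overlapped between the antibodies, and each lay within 1 standard error of 0.

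Of the 9 genes of spindle motors, kinetochores and cytokinesis, 7 had a fold change above 1 (77.8%, beside 51.5% of all tested genes), 6 had both Runx1 libraries above both IgG libraries (66.7%, beside 24.1%), and none passed. Their median log2 fold change was 0.56. Cenpa, the histone H3 variant that marks centromeres, had 159 and 177 CPM with the Runx1 antibody and 89.8 and 70.9 CPM with IgG (1.03 ± 0.28, edgeR adjusted p = 0.159, and 0.0239 in DESeq2). Cenpe, a kinetochore motor with a very long coiled coil, had 624 and 689.9 CPM with the Runx1 antibody and 398 and 478 CPM with IgG (0.56 ± 0.16, edgeR adjusted p = 0.178). Cenpe passed in DESeq2 (adjusted p = 0.0251) but not in limma-voom (0.0697). With a library left out its log2 fold change was 0.42 to 0.68. Kif20b, a motor of late mitosis, had 53.1 and 50.3 CPM with the Runx1 antibody and 23.4 and 19.3 CPM with IgG, with replicates close together in both groups (1.24 ± 0.48, edgeR adjusted p = 0.296). Cenpf, a large kinetochore-associated protein, had 1211 and 1123 CPM with the Runx1 antibody and 993 and 934 CPM with IgG, a difference of 0.25 ± 0.11 on the log2 scale (edgeR adjusted p = 0.371). The cytokinesis genes Kif23 (0.62 ± 0.29) and Anln (0.88 ± 0.42) did not overlap between the antibodies, while Prc1 (-0.17 ± 0.70) and the spindle assembly factor Tpx2 (0.040 ± 0.19) did.

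Kif11, the motor that pushes spindle poles apart, was lower in both Runx1 libraries. It had 23.9 and 80.0 CPM with the Runx1 antibody and 90.5 and 81.0 CPM with IgG, so that Runx1 replicate 1 stood far below the other 3 libraries. The log2 fold change was -0.74 ± 0.53 (edgeR adjusted p = 0.606). Without Runx1 replicate 2 it was -1.90, and without Runx1 replicate 1 it was -0.16. With spike-in scaling Kif11 was called lower (edgeR adjusted p = 0.00883), where 31.6% of all tested genes were called lower.

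**Figure D3:**
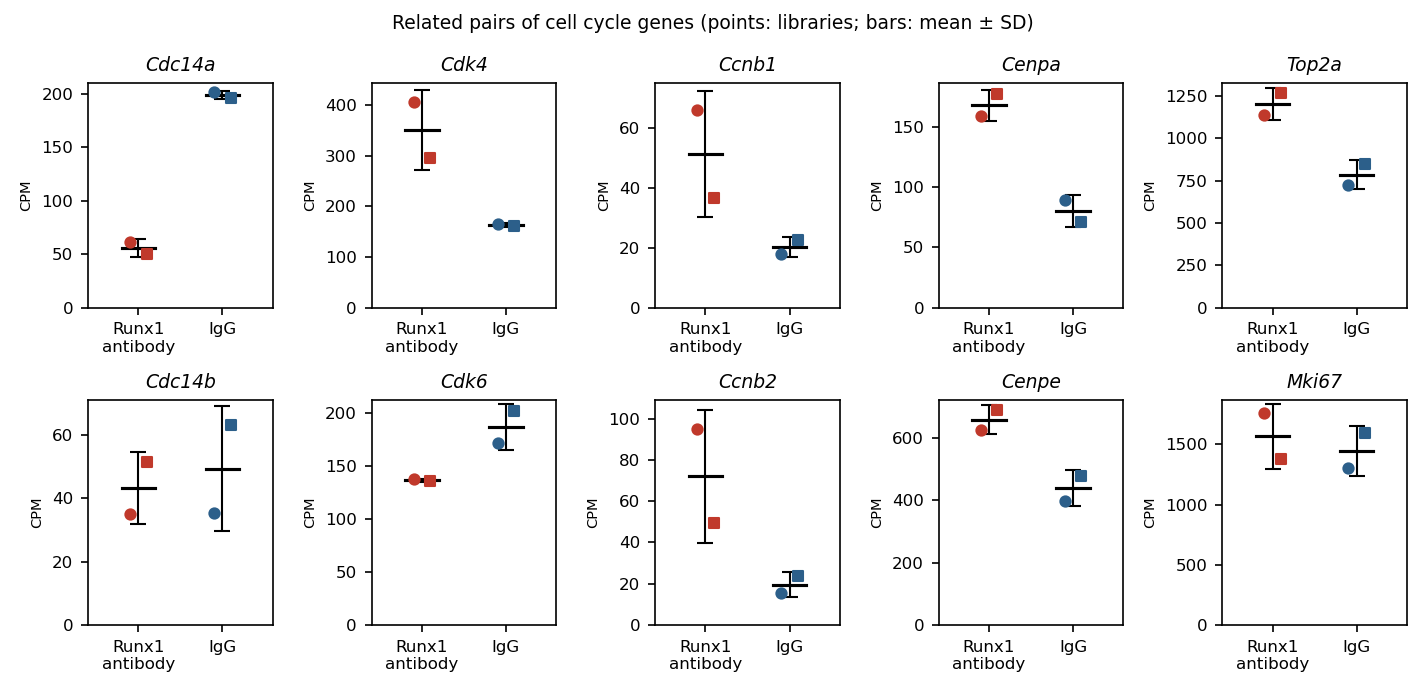
Levels of 5 pairs of cell cycle genes in CPM. Points are libraries (circles replicate 1, squares replicate 2) and bars the mean ± SD (n = 2 each). Axes start at 0 and differ in scale. Cdc14a is lower with the Runx1 antibody while Cdc14b overlaps, and Cdk4 is above IgG in both Runx1 libraries while Cdk6 is below. Once length and GC are corrected for, the log2 fold change is 0.75 for Cdk4 and -0.047 for Cdk6.

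The anaphase-promoting complex was represented by its activator Cdc20 and its ubiquitin-conjugating enzyme Ube2c. Cdc20 had 102 and 132 CPM with the Runx1 antibody and 83.0 and 49.6 CPM with IgG (log2 fold change 0.79 ± 0.37, edgeR adjusted p = 0.375). Ube2c had 75.2 and 78.9 CPM with the Runx1 antibody and 55.2 and 81.0 CPM with IgG, and the groups overlapped (0.15 ± 0.37). Once length and GC were corrected for, Cdc20 stood at 0.38 and Ube2c at -0.25 on the log2 scale. An exon of Cdc20 overlaps Elovl1 on the opposite strand, which had 20.3 and 30.7 CPM with the Runx1 antibody and 4.16 and 0.806 CPM with IgG. Without a stated strand setting, reads of the 2 genes cannot be told apart where they overlap. Exons of 15 of the 42 members overlap a gene on the opposite strand, among them Cdk4 (Tspan31), Ccnd3 (Bysl) and Ccne2 (Ints8), and exons of 2 (Cdc14b and Top2a) overlap a gene on the same strand.

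Mki67 and Top2a are widely used as markers of dividing cells. Mki67, which encodes the Ki-67 protein that coats mitotic chromosomes, had 1757 and 1376 CPM with the Runx1 antibody and 1299.7 and 1592 CPM with IgG. The groups overlapped, and the log2 fold change was 0.086 ± 0.14 (edgeR adjusted p = 0.861). Mki67 stood at 0.46 with length and GC corrected for (edgeR adjusted p = 0.247), and at 0.44 by the longest transcript (edgeR adjusted p = 0.275). Top2a, the topoisomerase that untangles sister chromosomes, had 1136 and 1268 CPM with the Runx1 antibody and 726 and 845 CPM with IgG. Its groups did not overlap, with 1202 ± 93.5 CPM against 785 ± 84.3 CPM (SD, n = 2 each) and a log2 fold change of 0.59 ± 0.13 that did not pass in edgeR (adjusted p = 0.0984). Top2a passed in DESeq2 (adjusted p = 0.00169) and limma-voom (0.0158), but not in edgeR with replicate numbers as a block (adjusted p = 0.150). With a library left out its log2 fold change was 0.47 to 0.69. After the length and GC correction 26 genes were called higher, or 0.21% of all in that fit, and 2 were members. These were Top2a (0.90 ± 0.14, edgeR adjusted p = 0.0457) and Cenpf (0.73 ± 0.12, edgeR adjusted p = 0.0457). With the longest transcript of each gene in that correction, neither passed (0.0692 and 0.0606). With spike-in scaling Cenpf was instead called lower (-1.04, edgeR adjusted p = 0.0155), where 31.6% of all tested genes were called lower.

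Scaling to the spike-in RNAs, synthetic transcripts added in known amounts, moved almost all genes down together. The median of all genes went to -1.25 on the log2 scale, a shift of -1.28, and 40 of the 42 members were then below 0. The edgeR test called 13 members lower under that scaling and 0 higher, where it called 31.6% of all tested genes lower. Relative to the shift no member changed its sign, and Cdc14a stood at -1.86 and Cdk4 at 1.08. The scaling changes only the size factor of each library, so taking the shift off nearly returns the main fit. Those unchanged signs are therefore no check of direction. Higher and lower in this text therefore mean relative to the typical gene of the same library. Between 434 and 713 spike-in counts were available per library, which limits the precision of that scaling.

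Transcripts of the members varied in length from 947 to 11525 bases, and longer 3′ UTRs went with lower fold changes. Spearman's rank correlation between 3′ UTR length and log2 fold change was -0.49 over the 42 members and -0.24 over the 10681 protein-coding genes tested, where all genes share the same 4 libraries and their length and base composition vary together. Of the 21 members with a 3′ UTR under 906 bases 18 had a fold change above 1 (median log2 fold change 0.59), and of the 21 with a longer one 13 did (median 0.044). Split at the same length, protein-coding genes had medians of 0.26 below it and -0.12 above it. After the length and GC correction the correlation over the members was -0.29. For whole transcript length it was -0.32 over the members and -0.29 over coding genes, and for GC content 0.23 and 0.26. Cdc14a has a 3′ UTR of 2129 bases and Ccnb2 one of 230 bases.

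**Figure D4:**
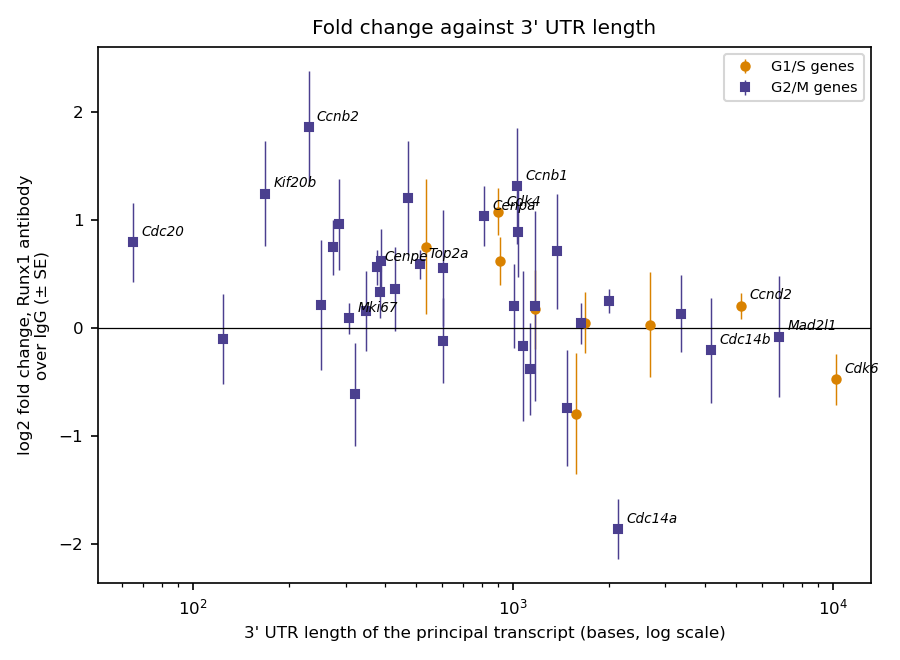
Log2 fold change (Runx1 antibody over IgG, ± SE) of the 42 genes against the 3′ UTR length of their principal transcript, on a log scale; orange circles are G1/S genes and purple squares G2/M genes. Genes with short 3′ UTRs such as Ccnb2 and Kif20b lie mostly above 0, and Cdc14a lies far below genes of similar 3′ UTR length.

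RUNX proteins are known to bind DNA at the letters TGTGGT. Since the antibody was against Runx1, these letters were counted in the sense strand of the members' RNA, with their reverse complement ACCACA beside them and overlapping matches allowed. TGTGGT was found 53 times in 26 of the 42 principal transcripts, 19 times in coding sequence, and in 69.9% of the transcripts of the protein-coding genes tested, against 61.9% of the members. ACCACA was found in 59.5% of the members and 64.1% of coding genes. Members with TGTGGT had a median log2 fold change of 0.15 and those without it 0.62, beside -0.040 and 0.20 for coding genes with and without it. Transcripts of members with it were also longer, with a median of 3450 bases against 2727 bases. Cdc14a, Ccnb1, Ccnb2 and Cenpe hold no match. The windows below, each of 30 bases of coding sequence from GENCODE M21 with the letters in capitals, show where it falls in a kinase gene above IgG in both Runx1 libraries, 2 further kinase genes and Top2a:
Cdk4: ggccctcacgccTGTGGTggttacgctctg
Cdk6: tggtcgtcacgcTGTGGTaccgagccccag
Cdk1: aggtagtgacgcTGTGGTaccgatctccag
Top2a: gctgcaattggtTGTGGTattgtggaaagc
The Cdk6 and Cdk1 windows share 25 of 30 bases, and the Cdk6 window shares 16 of 30 with the other coding match of Cdk1. Top2a also holds further coding matches that are not shown. A match is a description of the letters and not a binding site.

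Another 94 cell cycle genes were examined as context, of which 86 could be tested. They cover Rb, E2F and DREAM factors, CDK inhibitors, the anaphase-promoting and SCF complexes, the kinetochore and further spindle motors. None passed in edgeR in either direction with the settings used for the members, with an unadjusted p under 0.05 for 4 that were higher and 3 that were lower (4.65% and 3.49%, beside 6.88% and 7.36% of all tested genes). DESeq2 called 3 higher and 2 lower, where it called 1.98% and 2.77% of all tested genes, and limma-voom called 0. Other edgeR settings did call some of them. With spike-in scaling 25 of 86 were called lower, where 31.6% of all tested genes were called lower. Of 92 in the fit with no low-count filter, 2 were higher and 1 lower, beside 224 and 325 of 22242 genes. Some fits with a library left out called a few as well, with 1 library of an antibody remaining. The median log2 fold change of the 86 genes was 0.077, and 47 were above 0 (54.7%, beside 51.5% of all tested genes). The spindle motor Kif22 had 186 and 193 CPM with the Runx1 antibody and 98.9 and 68.9 CPM with IgG (log2 fold change 1.14 ± 0.28, edgeR adjusted p = 0.124). Ccnf, cyclin F, had 189.8 and 174 CPM with the Runx1 antibody and 87.9 and 97.9 CPM with IgG (0.94 ± 0.25, edgeR adjusted p = 0.159). Kif20a, a motor of cytokinesis, had the largest positive value, at 160.6 and 54.6 CPM with the Runx1 antibody against 31.5 and 4.83 CPM with IgG (2.50 ± 0.80, edgeR adjusted p = 0.212), with replicates far apart in both groups. Its log2 fold change was 4.41 without IgG replicate 1, 1.72 without IgG replicate 2, 1.51 without Runx1 replicate 1 and 3.05 without Runx1 replicate 2 (edgeR adjusted p 1.48e-05 to 0.308 over all alternatives). Cul1, the scaffold of SCF ligases, had 149 and 93.3 CPM with the Runx1 antibody and 67.9 and 62.0 CPM with IgG (0.86 ± 0.35, edgeR adjusted p = 0.310).

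On the lower side of that list, the E2F partner gene Tfdp1 had 502 and 345 CPM with the Runx1 antibody and 806 and 556 CPM with IgG (-0.72 ± 0.23, edgeR adjusted p = 0.210). Tfdp1 passed in DESeq2 (adjusted p = 0.0180), and its adjusted p ran from 0.00111 to 0.527 over all alternatives. The kinetochore gene Zwint had 263 and 262 CPM with the Runx1 antibody and 422 and 353 CPM with IgG (-0.59 ± 0.18, edgeR adjusted p = 0.197). By group, the median log2 fold change was 0.39 for genes of the anaphase-promoting and SCF complexes, 0.40 for spindle motors, -0.29 for Rb, E2F and DREAM factors, -0.22 for the kinetochore and -0.17 for CDK inhibitors and cofactors. The inhibitor genes Cdkn2a and Cdkn2b had 0 counts in all 4 libraries.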

How the data were processed

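The table the authors deposited holds whole-number counts for each Ensembl gene, 1 column per library, not normalized. The mm10 build and the tools Salmon 1.1.0, STAR 2.7.3a and Trimmomatic 0.36 appear without role or order, per the submitters' processing notes. Not given in the sources used here are the gene annotation, the strand setting and any filter. Per the labels' protocols, cDNA was made by a single-cell method with RNA solution in place of a cell. PCR copies are not independent molecules, so limits from counts cover counting error only. Of 55573 gene identifiers 55480 were found in GENCODE M21, and the 92 spike-in RNAs entered neither library sizes nor tests. A level of 3 counts corresponds to 0.781 to 1.79 CPM.

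Libraries were grouped by their titles. The main test was the quasi-likelihood test of edgeR 4.0.16, run in R 4.3.3 (TMM, filterByExpr with minimum count 10 and total 15, two-sided, Benjamini-Hochberg over 12401 genes, threshold 0.05) over all 4 libraries with no block. Standard errors follow from the test statistic. The test was checked on simulated counts. Each gene's transcript is its longest APPRIS principal one. Near-identical copies were sought with blastn 2.17.0 (200 bases at 95% identity), and 4 members have one. The members, lists and tests were chosen with earlier results of these data known. Values are given in full for members that pass, the 4 smallest p of each role, and 8 fixed genes (Ccnd1, Ccnd2, Ccnb1, Cdk1, Cdc14a, Cdc14b, Mki67, Top2a); of the other cell cycle genes, for the 6 smallest p. Wee1 and Kif11 were added after their values were seen. Alternatives were DESeq2 1.42.0, limma-voom (limma 3.58.1), other scalings and filters, a length and GC correction (natural splines, 5 degrees of freedom), a replicate block and each library left out. A fit with a library left out has 1 library of that antibody, so its spread rests on the other antibody. Such fits called more genes than the main fit.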

Additional observations from a re-analysis of the deposited data

How the results depend on the processing

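Counts of called genes depended on the setting (38 higher and 42 lower in the fit as reported). They were 246 and 344 with DESeq2, 102 and 120 with limma-voom, 224 and 325 with no low-count filter, 125 and 159 with the strict filter, 19 and 3914 with spike-in scaling, 26 and 11 with the length and GC correction and 23 and 4 with that correction by the longest transcript, which was chosen after seeing the data. With each library left out in turn they were 95 to 248 higher and 81 to 352 lower. The replicate block, on numbers that nothing in the labels pairs (correlation of replicate differences 0.0044), gave 2 and 0, and Cdc14a at -1.87 with an adjusted p of 0.114.

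Members called higher (0 as reported) were 5 with DESeq2, 3 with no filter, 2 each with limma-voom, the strict filter and the length and GC correction, and 0 to 3 with a library left out. Members called lower (1 as reported) were 13 with spike-in scaling, 0 with the replicate block and with both length and GC corrections, and 1 to 2 with a library left out. The median member log2 fold change (0.21) was -1.08 with spike-in scaling and 0.20 to 0.35 with a library left out. Signs of members not called changed in 7 genes under the length and GC correction, in 5 by the longest transcript, in 2 with limma-voom and in 5 to 9 with a library left out. The cause of these changes was not tested. Members under 100 CPM had a median SE of 0.49, which limits what could be called.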
